A study of Saccharomyces cerevisiae with 10 samples.

Results

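The 36 genes described here are the SEC genes of *Saccharomyces cerevisiae* (budding yeast): every gene of the array table whose standard symbol is SEC followed by a number. They are 36 of the 5822 genes in the table, and all 36 SEC genes of the RefSeq gene table for assembly R64 were on the array. Wild type cells and cells of a strain labelled delPPT1 (a PPT1 mutant, PPT1 coding for a serine/threonine protein phosphatase) were sampled at 0 min and again after a hypo-osmotic shock, a sudden drop in the osmolarity of the medium. The wild type was sampled at 0, 7, 16, 30 and 60 min and the labelled mutant at 0, 7, 15, 30 and 60 min, with 1 array for each, so 10 arrays in all. Total RNA of a sample was hybridised against a reference on 2-channel arrays. The labels do not give the strain background, the medium or the make-up of the reference, and they name no culture followed without a shock.

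SEC genes were found through yeast mutants that fail to secrete proteins, and their products act in order along the secretory pathway. Proteins enter the endoplasmic reticulum (ER) through the Sec61 channel and receive sugar chains there. They leave in vesicles with a COPII coat, while COPI vesicles bring material back from the Golgi. Vesicles from the Golgi are then tethered at the plasma membrane by the exocyst and fuse through SNARE proteins, which delivers new membrane and the enzymes that build the cell wall.

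Values are log2 ratios, read as sample over reference and centred on the median of each array. That direction is likely and not stated, and with the ratio turned every rise below would be a fall and every level above the reference a level below it. The arrays held values for 5440 to 5807 genes, and the lowest correlation across genes between any 2 arrays was 0.366 (genes are not independent replicates). Values with 4 decimals made up 43% of the wild type array of 0 min and 0% of the others. The 2 arrays of 0 min, against which every later time is set, had the widest spread over genes. Their standard deviations were 0.52 in the wild type and 0.50 in the labelled mutant, and those of the other arrays 0.35 to 0.45. The highest correlation, 0.829, was between these 2 arrays. Whether their wider spread bears on the changes below was not tested. PPT1 itself was not lower on the arrays labelled delPPT1: it ranged from -0.50 to 0.067 in the wild type and from -0.55 to 0.40 in the labelled mutant, a fitted difference of 0.19 ± 0.13 (SE, 10 arrays; limma adjusted p = 0.417). Where the spot lies in PPT1 is not stated, so delPPT1 is used as a label only. Of the SEC genes, 33 had a value on all 10 arrays. SEC15 and SEC53 lacked the wild type 30 min value and SEC2 the wild type 16 min value, and the fits for these 3 genes dropped that array.

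The SEC genes spanned narrow ranges. The highest and the lowest log2 ratio of a SEC gene over the 10 arrays lay between 0.23 (SEC61) and 0.97 (SEC59) apart, so no member spanned 2-fold, while 15.6% of all genes did. The median range was 0.55 for the SEC genes and 0.64 for all genes. The standard deviation over the arrays was below the median of all genes in 24 of the 36. These are descriptions of single arrays at different times and were not tested.

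**Figure D1:**
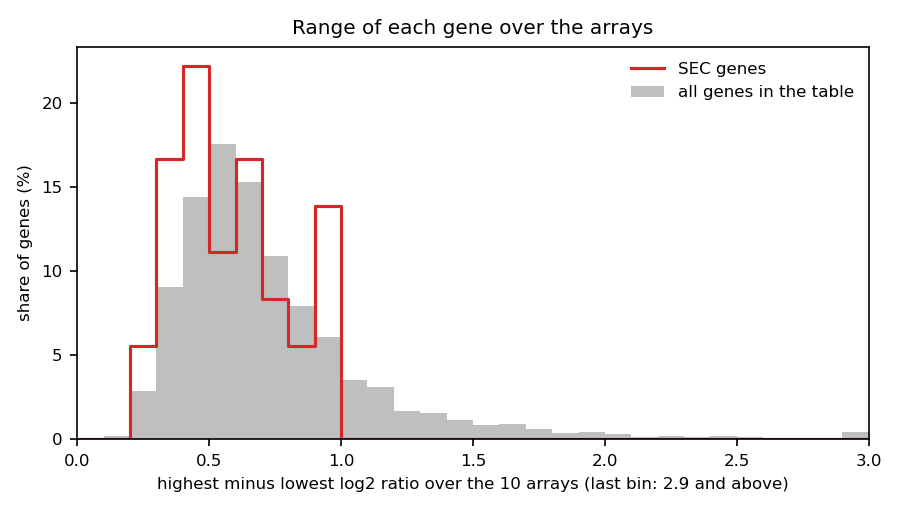
Range of each gene over the 10 arrays (x axis, log2 ratio) against the share of genes in percent (y axis) for all 5822 genes (grey bars) and the 36 SEC genes (red line). The SEC genes end below a range of 1, where 15.6% of all genes continue.

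**Figure D2:**
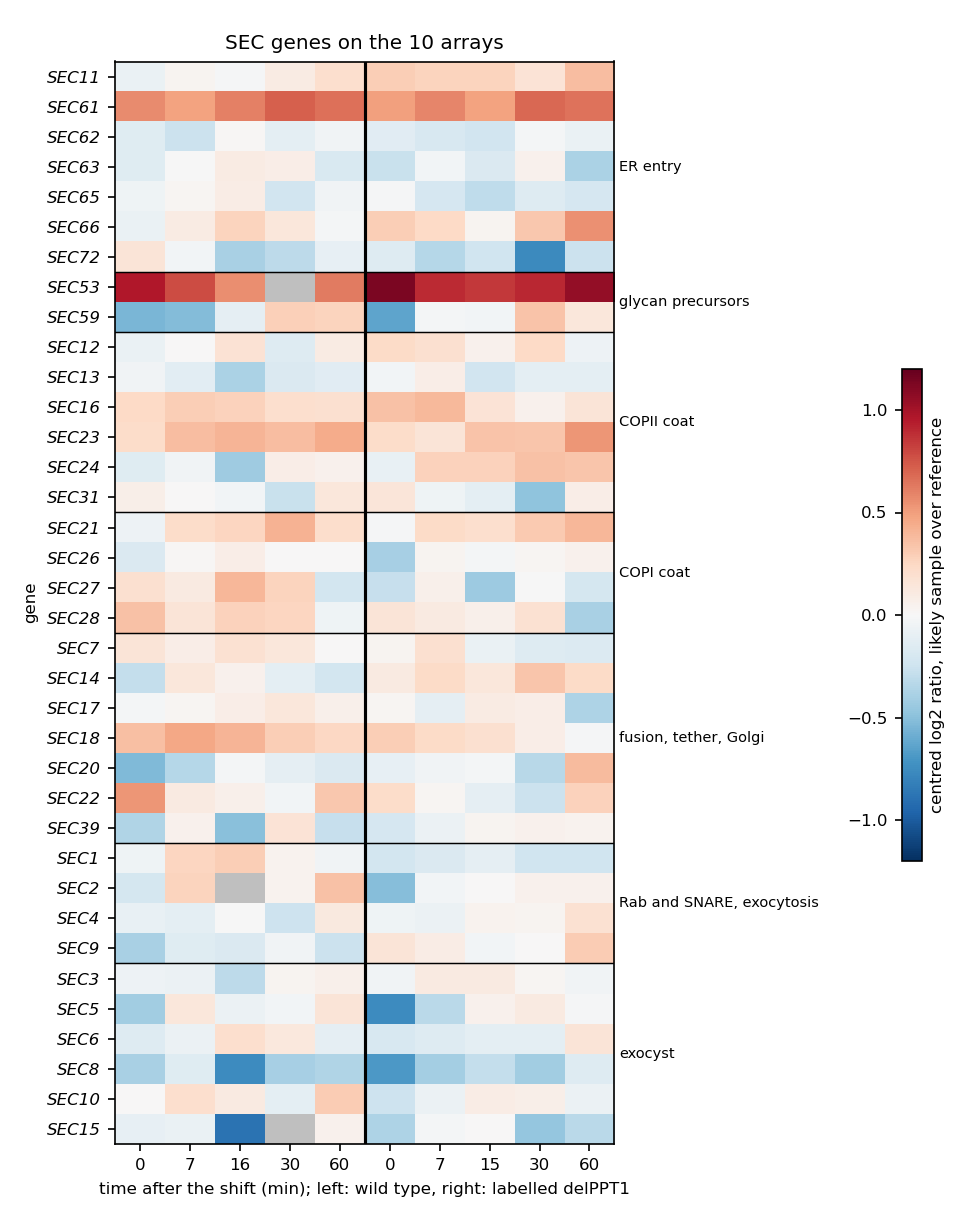
Centred log2 ratios (colour) of the 36 SEC genes (rows, by role) on the 10 arrays (columns, time in min; wild type left, labelled delPPT1 right); grey cells have no value. SEC53, SEC61, SEC23 and SEC16 stay above the reference on every array with a value, and SEC59 goes from below to above it in both strains.

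The change over time was fitted with limma to all genes on all 10 arrays, with time and strain as additive terms, so the strains serve as the 2 replicates of each time. The 15 and 16 min arrays were taken as 1 time point, 15-16 min. The threshold was an adjusted p under 0.05 (Benjamini-Hochberg, over all genes). Since no label says that arrays come from separate cultures, the p-values reflect the scatter of these 10 arrays alone, and part of it may be technical.

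The first SEC genes to pass did so at 30 min. SEC59 and SEC5 rose and SEC22 and SEC31 fell at 30 min, and SEC59, SEC5 and SEC2 rose and SEC28 fell at 60 min. SEC59 codes for dolichol kinase, which makes the lipid carrier of sugar chains in the ER, and it had the largest change of the group, 1.87-fold at 30 min. At 30 min 4 of 36 members passed, against 11.4% of all genes (3.56% higher and 7.8% lower). At 60 min 4 of 36 passed, against 12.3% of all genes (3.97% higher and 8.38% lower), so at both times the members' share of 11.1% lay near the background. The split of 2 higher and 2 lower at 30 min became 3 and 1 without centring, 1 and 2 with each array also scaled by its median absolute deviation, and 1 and 0 with quantile normalization. The split of 3 higher and 1 lower at 60 min became 3 and 0 without centring, 1 and 0 with that scaling and 2 and 0 with quantile normalization. At 7 min 0 of 36 passed in limma, against 3.02% of all genes, with 4 members (11.1%) and 16.2% of all genes at an unadjusted p under 0.05. At 15-16 min 0 of 36 passed, against 7.18% of all genes, with 6 members (16.7%) and 22.3% of all genes at an unadjusted p under 0.05. By the moderated F test over the 4 later times 1 member passed, SEC59, against 8.91% of all genes. No alternative setting tried gave a SEC gene at 7 or 15-16 min.

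At the 4 later times in order, the median change of the members was 0.061, 0.033, 0.09 and 0.095, beside -0.0078, -0.0045, -0.018 and -0.017 for all genes. At 7 min 27 of the 36 estimates were above 0 (75%, against 48.7% of all genes), and at 15-16 min 24 were (66.7%, against 49.4%). At 30 min 23 were (63.9%, against 47.1%), and at 60 min 21 were (58.3%, against 47.7%). All 4 times are set against the same 2 arrays of 0 min. Without the wild type one the members' median was 0.031, 0.038, 0.012 and 0.054 at the 4 later times in order. Without the one labelled delPPT1 it was 0.082, 0.053, 0.099 and 0.094. The 95% interval of the change lay inside 2-fold for 36 members at 7 and at 15-16 min, for 33 at 30 min and for 34 at 60 min. The members whose interval reached 2-fold were SEC59, SEC5 and SEC15 at 30 min and SEC59 and SEC5 at 60 min.

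**Figure D3:**
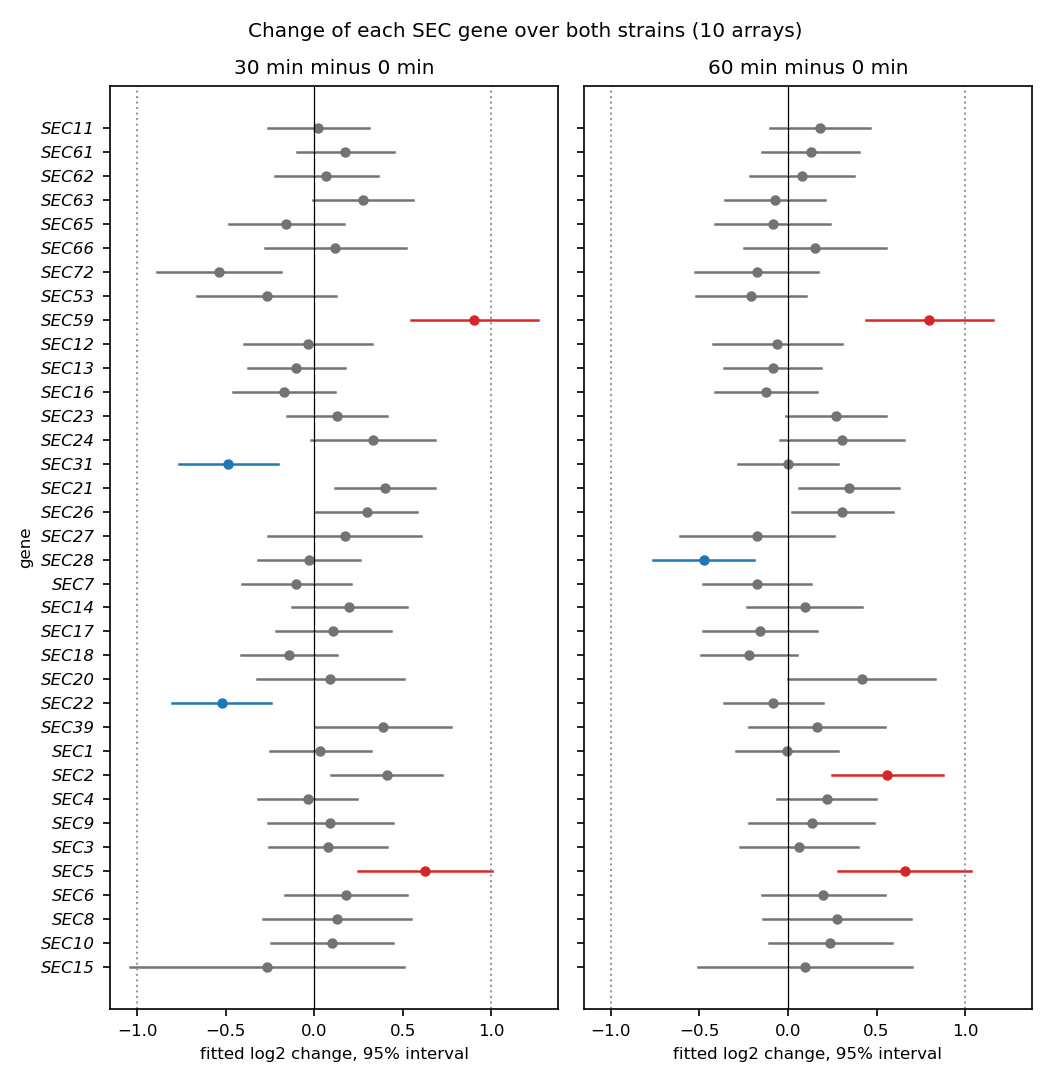
Fitted log2 change (x axis, point with 95% interval) of each SEC gene (y axis, by role) at 30 and 60 min against 0 min over both strains; red rose and blue fell at an adjusted p under 0.05, grey did not pass, and dotted lines mark 2-fold. SEC59 lies farthest from 0 in both panels.

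The genes of entry into the ER gave no call. These are SEC61, the channel itself; SEC62, SEC63, SEC66 and SEC72, which form with it the complex that takes up finished proteins; SEC65, a subunit of the signal recognition particle that brings ribosomes to the channel; and SEC11, the catalytic subunit of signal peptidase. SEC61 was above the reference on all 10 arrays, between 0.49 and 0.71, and had the narrowest range of all members. The widest of the 7 was SEC72. SEC72 stood at 0.15, -0.033, -0.39, -0.32 and -0.10 in the wild type at 0, 7, 16, 30 and 60 min. The arrays labelled delPPT1 gave -0.16, -0.34, -0.24, -0.77 and -0.26 at 0, 7, 15, 30 and 60 min. In each strain its later values all lay below that of 0 min. Its fitted change at 30 min was -0.54 ± 0.16 (SE, 10 arrays) and missed the threshold (limma adjusted p = 0.0538). SEC66 ranged from -0.077 to 0.54, SEC63 from -0.38 to 0.10, SEC11 from -0.078 to 0.37, SEC65 from -0.30 to 0.086 and SEC62 from -0.26 to 0.013.

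Sugar chain precursors gave the member with the largest change. In the wild type SEC59 stood at -0.55, -0.52, -0.11, 0.28 and 0.27 at 0, 7, 16, 30 and 60 min. On the arrays labelled delPPT1 it stood at -0.63, -0.028, -0.03, 0.34 and 0.14 at 0, 7, 15, 30 and 60 min. The 30 and 60 min values of both strains lay above every earlier value, and the strains differed most at 7 min, where 1 array each gives no test. SEC59 rose by 0.90 ± 0.16 at 30 min (SE, 10 arrays; limma adjusted p = 0.00582) and by 0.80 ± 0.16 at 60 min (adjusted p = 0.0111), and its F test gave adjusted p = 0.0254. SEC53, phosphomannomutase, which supplies the mannose for these chains, had the highest mean log2 ratio of all members, 0.86, higher than in 98.2% of all genes; with the ratio turned it would be the lowest. It ranged from 0.56 to 1.13, and its fitted changes lay between -0.34 and -0.21 with no call (lowest adjusted p over the 4 times 0.176).

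Among the COPII genes, SEC31 fell at 30 min and stood near its starting level at 60 min. Sec31 and Sec13 form the outer cage of the coat, Sec23 and Sec24 the inner layer that picks cargo, Sec12 is the exchange factor that loads the small GTPase Sar1, and Sec16 is a scaffold at ER exit sites. From 0 to 60 min SEC31 stood at 0.069, 0.009, -0.036, -0.27 and 0.14 in the wild type. Its values in the labelled mutant were 0.15, -0.047, -0.12, -0.49 and 0.078. The 30 min array was the lowest in each strain. The fitted change was -0.49 ± 0.13 at 30 min (SE, 10 arrays; limma adjusted p = 0.0349) and -0.00075 ± 0.13 at 60 min (adjusted p = 0.998). The other 5 genes did not pass at any time. At 30 min the inner-layer genes SEC24 (0.33 ± 0.16) and SEC23 (0.13 ± 0.13) had estimates above 0, and SEC13 (-0.10 ± 0.12), SEC12 (-0.036 ± 0.16) and SEC16 (-0.17 ± 0.13) below 0. SEC24 ranged from -0.43 to 0.35 over the arrays, SEC13 from -0.38 to 0.083, SEC12 from -0.16 to 0.24, SEC23 from 0.16 to 0.53 and SEC16 from 0.049 to 0.39.

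Of the 4 coatomer (COPI) genes, 1 passed: SEC28, the epsilon subunit, fell at 60 min. The wild type values of SEC28 from 0 to 60 min were 0.35, 0.15, 0.27, 0.26 and -0.055. Those of the labelled mutant were 0.16, 0.11, 0.062, 0.19 and -0.39. The 60 min array was the lowest in each strain and the only value below 0. The fitted change at 60 min was -0.48 ± 0.13 (SE, 10 arrays; limma adjusted p = 0.0394), after changes of -0.12 to -0.03 at the earlier times. SEC21, the gamma subunit, had estimates above 0 at each time, 0.26, 0.27, 0.40 and 0.34 (each ± 0.13), with the lowest adjusted p at 30 min (0.072). SEC26, the beta subunit, had 0.30 to 0.31 at each time (lowest adjusted p 0.149), and SEC27, the beta' subunit, lay between -0.17 and 0.17 (lowest adjusted p 0.608). Over the arrays SEC21 ranged from -0.06 to 0.41, SEC26 from -0.40 to 0.084 and SEC27 from -0.44 to 0.39.

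Of the 7 genes of membrane fusion, ER tethering and Golgi function, SEC22 fell at 30 min. Sec22 is a SNARE of traffic between ER and Golgi. In the wild type it stood at 0.53, 0.11, 0.057, -0.029 and 0.32 from 0 to 60 min. On the arrays labelled delPPT1 it stood at 0.22, 0.028, -0.11, -0.26 and 0.27. In both strains the value went down until 30 min and was above 0 again at 60 min. The fitted change was -0.31 ± 0.13 at 7 min (SE, 10 arrays; limma adjusted p = 0.271), -0.41 ± 0.13 at 15-16 min (adjusted p = 0.0886), -0.52 ± 0.13 at 30 min (adjusted p = 0.0257) and -0.083 ± 0.13 at 60 min (adjusted p = 0.723). SEC31 and SEC22 were thus the 2 members called lower at 30 min, and neither was called at 60 min. Whether the 30 min level differed from the 60 min level was not tested. SEC20, another ER SNARE, ranged from -0.53 to 0.38, and SEC39, a subunit of the Dsl1 tether, from -0.50 to 0.16. SEC17 (alpha-SNAP), which with Sec18 takes used SNARE complexes apart, ranged from -0.37 to 0.13 and SEC18 (NSF) from -0.017 to 0.47. SEC7, an exchange factor of the GTPase Arf1 at the Golgi, ranged from -0.16 to 0.19, and SEC14, a phosphatidylinositol and phosphatidylcholine transfer protein, from -0.29 to 0.33. None of these 6 passed at any time.

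At the plasma membrane SEC2 and SEC5 rose. Sec2 is the exchange factor that activates the Rab GTPase Sec4 on secretory vesicles. In the wild type SEC2 stood at -0.21, 0.26, 0.043 and 0.35 at 0, 7, 30 and 60 min. On the arrays labelled delPPT1 it stood at -0.51, -0.029, 0.008, 0.05 and 0.048 at 0, 7, 15, 30 and 60 min. In each strain the 0 min array was the lowest. The fitted rise was 0.48 ± 0.14 at 7 min (SE, 9 arrays; limma adjusted p = 0.128), 0.41 ± 0.14 at 30 min (adjusted p = 0.0942) and 0.56 ± 0.14 at 60 min (adjusted p = 0.0324). SEC4 ranged from -0.24 to 0.18. SEC1, whose product binds the assembled SNARE complex, ranged from -0.24 to 0.29, and SEC9, a SNARE of the plasma membrane, from -0.39 to 0.30; none of these 3 passed at any time.

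Of the 6 SEC genes of the exocyst, SEC5 rose and the other 5 did not pass. In the wild type SEC5 stood at -0.42, 0.14, -0.069, -0.034 and 0.16 from 0 to 60 min. On the arrays labelled delPPT1 it stood at -0.76, -0.32, 0.055, 0.11 and -0.011. The 0 min array was the lowest in each strain. SEC5 rose by 0.62 ± 0.17 at 30 min (SE, 10 arrays; limma adjusted p = 0.0409) and by 0.66 ± 0.17 at 60 min (adjusted p = 0.0329), after 0.49 ± 0.17 at 7 min (adjusted p = 0.18) and 0.58 ± 0.17 at 15-16 min (adjusted p = 0.0747). All 6 of these SEC genes had an estimate above 0 at 60 min, with a median of 0.22 beside -0.017 for all genes, but SEC8 (0.28 ± 0.19), SEC10 (0.24 ± 0.16), SEC6 (0.20 ± 0.16), SEC15 (0.095 ± 0.27) and SEC3 (0.06 ± 0.15) did not pass. The exocyst subunits with other names, EXO70 (0.091 ± 0.16) and EXO84 (-0.045 ± 0.16), did not pass at 60 min either, and EXO84 lay below 0; they are named for completeness, after their values were seen. SEC8 was below the reference on all 10 arrays, between -0.76 and -0.15. SEC15 ranged from -0.88 to 0.048, SEC10 from -0.25 to 0.31, SEC3 from -0.32 to 0.11 and SEC6 from -0.20 to 0.20.

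**Figure D4:**
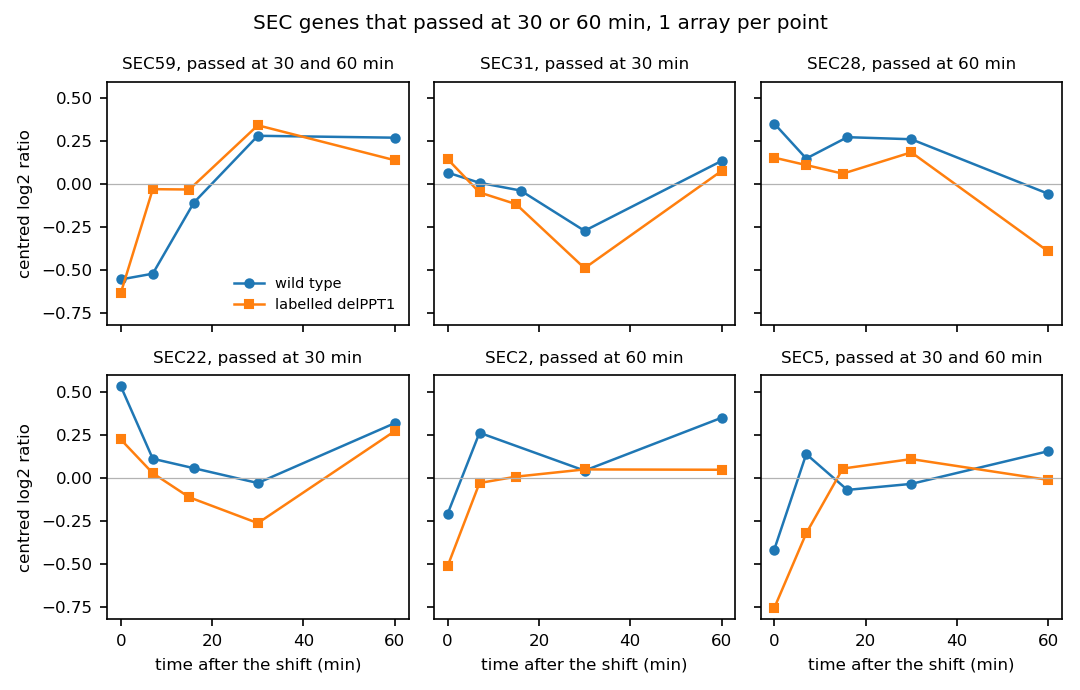
Centred log2 ratio (y axis) of the 6 SEC genes that passed at 30 or 60 min against time (x axis, min), 1 array per point, wild type in blue and labelled delPPT1 in orange. SEC59, SEC2 and SEC5 start lowest at 0 min in both strains, SEC31 and SEC22 are lowest at 30 min, and SEC28 is lowest at 60 min.

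These calls rested on few arrays. Without the 0 min array labelled delPPT1, 0 SEC genes passed at 30 or 60 min, and without the wild type 60 min array 0 passed at 60 min. At 30 min 1 passed without the wild type 0 min array, 1 without either 30 min array and 2 without either 60 min array. At 60 min 1 passed without the wild type 0 min array, 1 without the 60 min array labelled delPPT1 and 2 without either 7 min array. SEC59 kept its call at 30 min without any of the other 9 arrays, and without the 0 min array labelled delPPT1 it stood at 0.80 (limma adjusted p = 0.0699). At 60 min SEC59 missed the threshold without that array (0.70, adjusted p = 0.107) and without the wild type 60 min array (0.66, adjusted p = 0.0921). Its F test missed without the wild type 0 min (adjusted p = 0.093), 30 min (0.0765) or 60 min array (0.0518) and without the 0 min (0.145) or 30 min array (0.0756) labelled delPPT1.

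SEC5 lost its call at 60 min without either 0 min or either 60 min array (0.53 to 0.78; limma adjusted p from 0.0761 to 0.218), and at 30 min without either array of 0, 30 or 60 min (0.45 to 0.80; adjusted p from 0.056 to 0.269). SEC2 lost its call without either array of 0, 7 or 60 min (0.51 to 0.61; adjusted p from 0.0543 to 0.187). SEC22 lost it without either array of 0 or 30 min (-0.61 to -0.44; adjusted p from 0.073 to 0.165). SEC31 (-0.58 to -0.39) and SEC28 (-0.58 to -0.37) lost it without either array of 0, 7, 30 or 60 min, with adjusted p from 0.0524 to 0.256. The direction of each of these changes was the same whichever array was left out.

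Between the strains, 0 of the 36 SEC genes passed in limma, against 3.8% of all genes (1.73% higher and 2.06% lower in the labelled mutant). The same count came from every alternative run. Without the time term 0% of all genes passed, so that run could not give another count. At an unadjusted p under 0.05 there were 9 members (25%, against 23.2% of all genes). The fitted difference, labelled delPPT1 minus wild type over the 5 matched times, lay between -0.32 (SEC27) and 0.33 (SEC24). Its 95% interval stayed inside 2-fold for all 36, and the farthest bound of any member was 0.59. The median difference was -0.025 for the members and 0.006 for all genes.

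The nearest to the threshold was SEC1, which with SEC9 is shown on every array by a choice made after their values were seen. SEC1 stood at -0.048, 0.26, 0.29, 0.041 and -0.038 from 0 to 60 min in the wild type and at -0.22, -0.18, -0.11, -0.24 and -0.24 on the arrays labelled delPPT1. SEC9, which codes for a SNARE of the complex that Sec1 binds, stood at -0.39, -0.14, -0.17, -0.046 and -0.26 in the wild type and at 0.16, 0.086, -0.031, 0 and 0.30 on the arrays labelled delPPT1. SEC1 and SEC9 were the 2 members whose 5 arrays of each strain did not overlap, SEC1 lower and SEC9 higher in the labelled mutant, against 3.98% of all genes without overlap. The fitted difference was -0.30 ± 0.08 for SEC1 (SE, 10 arrays; limma adjusted p = 0.0665) and 0.30 ± 0.10 for SEC9 (adjusted p = 0.107). SEC24 was higher in the labelled mutant in 5 of 5 matched times (0.33 ± 0.10, adjusted p = 0.0864), and so was SEC14 (0.30 ± 0.09, adjusted p = 0.0909). SEC4, SEC11 and SEC13 were also higher in 5 of 5, and SEC18, SEC22, SEC28 and SEC63 were lower in 5 of 5. How many of all genes differ in 1 direction at every matched time was not counted.

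**Figure D5:**
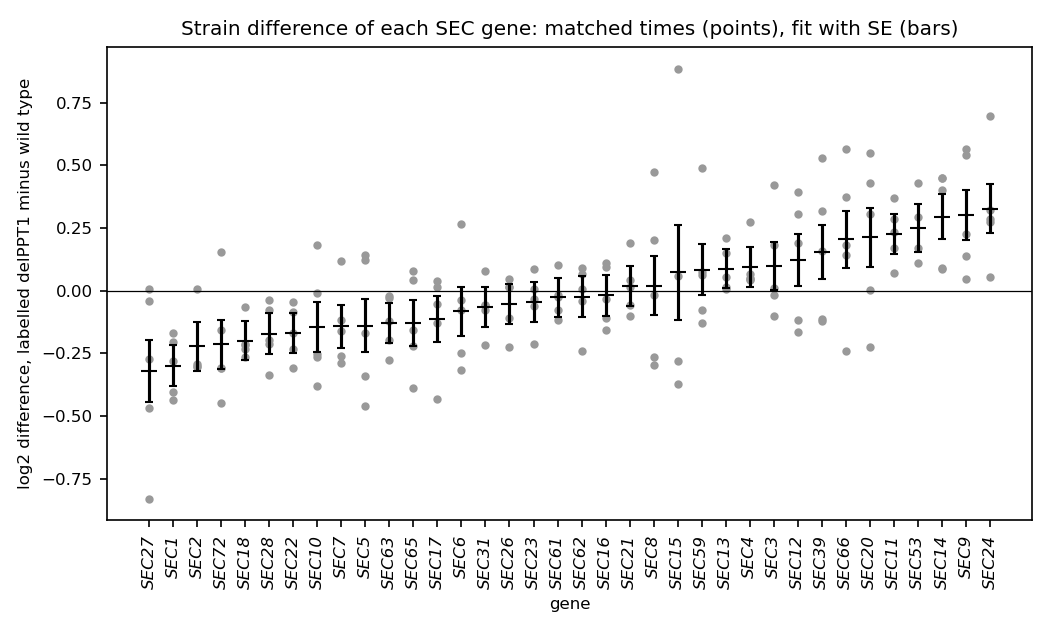
Log2 difference between the strains (y axis, labelled delPPT1 minus wild type) for each SEC gene (x axis), at the matched times (grey points) and as fitted over all 10 arrays (bar, ± SE). All 36 fitted differences lie between -0.32 and 0.33, and none passed.

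Whether the strains differed in their change after the shock was fitted as an interaction, the strain difference over the 4 later times minus that at 0 min. It passed 0 of 36 members in limma, against 0% of all genes, with 0 members and 4.71% of all genes at an unadjusted p under 0.05. The estimates lay between -0.30 (SEC9) and 0.47 (SEC15), and the median SE of 0.23 leaves room for differences of that size. The interval of 2 members, SEC15 and SEC8, reached 2-fold. Taken strain by strain with 1 array each, the change from 0 min had the same sign in both strains for 23 of 36 members at 7 min (63.9%, against 63.4% of all genes) and for 29 of 36 at 60 min (80.6%, against 70.3%). At 15-16 min it did for 54.3% of 35 members, against 60.3% of all genes, and at 30 min for 73.5% of 34, against 70.9%. No member passed 2-fold in either strain at any time, which follows from the ranges given above and is no separate result. Over all genes, 2.37%, 4.2%, 3.6% and 3.49% did so in the wild type at the 4 later times in order, and 1.33%, 2.64%, 4.37% and 4.55% on the arrays labelled delPPT1.

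Few other genes of the secretory pathway passed. In 7 lists of other genes of the same steps, 128 of the 135 genes listed were measured, and at the 4 later times in order 0, 1, 3 and 5 of them passed (at 60 min 3.91%, beside 12.3% of all genes). Between the strains 4 passed (3.12%, beside 3.8%). Of 23 other genes of N-linked glycosylation, ALG7 and ALG8 rose and 0 fell. ALG7, which starts the sugar chain on dolichol phosphate, the product of the Sec59 kinase, stood at -0.15, -0.31, -0.014, 0.38 and 0.26 from 0 to 60 min in the wild type and at -0.11, 0.21, 0.18, 0.59 and 0.80 on the arrays labelled delPPT1. Like SEC59, it was higher at 30 and 60 min than at any earlier time in both strains. So were ALG5, ALG11 and OST6 of the same list, the SEC gene SEC61, and RET3, TRS33, TRS85, MSO1, LHS1, BET3 and KAR2 of other steps. Of these genes only KAR2 passed over time. The order is thus not particular to SEC59 and ALG7. How many of all genes show this order was not counted. ALG7 rose by 0.61 ± 0.15 at 30 min (SE, 10 arrays; limma adjusted p = 0.0317) and by 0.66 ± 0.15 at 60 min (adjusted p = 0.022). ALG8, a glucosyltransferase of the same chain, rose by 0.69 ± 0.14 at 60 min (adjusted p = 0.0134).

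Of 18 other COPII and cargo receptor genes, ERP3, of the p24 family of ER vesicle proteins, rose by 0.60 ± 0.14 at 15-16 min (SE, 10 arrays; limma adjusted p = 0.0328) and by 0.81 ± 0.14 at 30 min (adjusted p = 0.00547). Of 17 other genes of ER entry, KAR2, the ER Hsp70 chaperone, rose by 0.62 ± 0.14 at 60 min (adjusted p = 0.0181). Of 17 genes of ER folding and the unfolded protein response, EUG1, a protein disulfide isomerase relative, rose by 0.45 ± 0.12 at 30 min (adjusted p = 0.0451) and PDI1, the main protein disulfide isomerase, fell by 0.46 ± 0.13 at 60 min (adjusted p = 0.043). Of 14 other exocytosis genes SNC2, the vesicle SNARE partner of Sec9, fell by 0.57 ± 0.16 at 60 min (adjusted p = 0.0434). Of 13 other COPI and Arf genes and of 26 other tether and SNARE genes, 0 passed over time in limma. At an unadjusted p under 0.05 there were 3 (23.1%) and 5 (19.2%) at 30 min, against 27.9% of all genes. At 60 min there were 1 and 2 (7.69% each), against 27.7% of all genes. By adjusted p, 3.02%, 7.18%, 11.4% and 12.3% of all genes passed at the 4 later times in order. Those shares are the background for the adjusted calls of each list here. Between the strains the gene of the alpha subunit of the signal recognition particle receptor (-0.57 ± 0.10, adjusted p = 0.0274), and EMP47, a cargo receptor (-0.45 ± 0.09, adjusted p = 0.036), were lower in the labelled mutant, and BET3, a TRAPP tether subunit (0.33 ± 0.08, adjusted p = 0.0468), was higher.

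These calls too rested on single arrays. At 60 min ALG7 (0.49 and 0.51) and ALG8 (0.56 and 0.56) missed without the 0 min or the 60 min array labelled delPPT1, and KAR2 missed without the wild type 0 min (0.50) or 60 min array (0.46), with adjusted p from 0.129 to 0.187. At 30 min ALG7 missed without either 30 min array or the 0 min array labelled delPPT1 (0.44 to 0.67; adjusted p from 0.108 to 0.243), and ERP3 without the wild type 0 min array or the 30 min array labelled delPPT1 (0.74 and 0.79; adjusted p = 0.0567 and 0.051). ERP3 at 15-16 min missed without either array of 0 or 15-16 min (0.53 to 0.67; adjusted p from 0.0696 to 0.21). EUG1 missed without either array of 0, 7, 30 or 60 min (0.35 to 0.54), and PDI1 (-0.53 to -0.38) and SNC2 (-0.70 to -0.44) likewise, with adjusted p from 0.0547 to 0.264. With quantile normalization PDI1 was at -0.11 (limma adjusted p = 0.668; -0.29 and 0.258 with scaling by the median absolute deviation) and SNC2 at -0.27 (adjusted p = 0.332). BET3 (0.30 to 0.34) missed whichever array was left out. The receptor subunit gene missed without either array of 0, 7, 15-16 or 30 min (-0.63 to -0.50) and EMP47 without either array of 0, 7, 30 or 60 min (-0.48 to -0.42), and over these 3 genes adjusted p ran from 0.0579 to 0.162.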

How the data were processed

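The deposited values are log2 ratios of 2-channel arrays, 1 per gene and array, with 1.81% of values missing. Per the labels channel 2 is a reference. The base is taken as 2 from the size of the values and the direction is likely sample over reference; neither is stated. For the array platform, dyes, background correction and the authors' normalization nothing is stated (not given in the sources used here), and without spot intensities signal over background is unknown. Names came from RefSeq (R64) by locus tag for 5358 of 5822 genes, and 464 stayed unnamed.

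Each array was centred on its median (deposited medians -0.075 to 0.012). limma 3.58.1 in R 4.3.3 (lmFit, eBayes) was fitted to all genes with time and strain (4 residual degrees of freedom), and with a strain difference after the shock for the interaction (3 residual). The code of the fits was checked on simulated data with independent noise. That check required recovery only of changes larger than any fitted for a SEC gene, and not for the interaction. Intervals and adjusted p-values come from the limma fits to the arrays, with Benjamini-Hochberg adjustment over all genes tested. The members and lists were chosen with earlier results of these data known. Values on every array were given for members that passed, then for the member of widest range in a role group not yet shown; other pathway genes were named if they passed, up to 4 per list, except 1 that is counted but not reported here. Alternatives were no centring, scaling by the median absolute deviation, quantile normalization, genes with all 10 values, robust or trended eBayes, no strain or time term, and leaving out each array. No promoter or protein sequence was used here.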

Additional observations from a re-analysis of the deposited data

How the results depend on the processing

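The count of SEC genes that passed at 30 min (4) became 1 with quantile normalization and 1 with no strain term, and lay between 0 and 5 when single arrays were left out. At 60 min it (4) became 1 with scaling by the median absolute deviation, 2 with quantile normalization and 1 with no strain term, and lay between 0 and 4 without single arrays. The F test passed 0 to 1 member without single arrays. The counts of 0 at 7 min, at 15-16 min, between strains and for the interaction stayed 0 in every alternative run. The interaction could not be estimated without a 0 min array. It passed 0 of all genes in every other run, so its count for the members could not differ. Between strains, the runs without 1 array passed 0.584% to 1.65% of all genes, so the 0 of those runs says little. Of 152 alternative values for the SEC genes that passed, 0 reversed direction and 91 kept their call. Of 253 for the other pathway genes, 0 reversed and 133 kept their call. The F tests of SEC59, ALG7 and ERP3 are among these values and have no direction. Leaving out an array of another time left many estimates unchanged, as for SEC31 at 30 min (-0.49 without either array of 7 or 60 min). The count of kept directions thus says little. Causes of the lost calls were not tested. The labels carry no replicate numbers to use as a block; the fit itself matches the strains by time and the times by strain, and without the time term the 221 genes called between strains became 0. Over all genes, the calls at 30 min were 207 higher and 454 lower, or 206 and 231 with quantile normalization and 307 and 378 without centring. At 60 min they were 231 and 488, or 203 and 248 and 387 and 388. The number of arrays limits the precision.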
